A study of Mus musculus with 8 samples.

Results

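The inner root sheath keratins are the structural proteins of the sheath that surrounds and moulds the growing hair shaft. They were taken here as the rows of the gene table named Krt25, Krt26, Krt27, Krt28, Krt71, Krt72 or Krt73. All 7 were found among 18770 genes. The sequenced messenger RNA came from depilated back skin of mice. By the paper's methods, keratinocytes of the epidermis between the follicles were taken off and the dermis with its follicles was used. Genes of the suprabasal epidermis were still read in every library, with larger sums in the alpinetin-treated group (values below). How complete the removal was in each library was not tested. The comparison was between 4 libraries of mice treated with alpinetin (AP), a flavonoid of ginger-family plants, and 4 libraries of vehicle-treated mice (VC), and asks how AP relates to gene expression during hair regrowth. Mice of both groups were wildtype males, 7 to 8 weeks old, of the strain C57BL/6 by their labels and C57BL/6J in the methods, whose back hair had been plucked to start a new hair cycle. AP mice received 3 mg/ml AP in 20 µl of 65% ethanol on the skin once a day, VC mice received 20 µl of 65% ethanol, and skin was taken on day 4 after depilation.

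Keratins assemble into filaments only as pairs of an acidic type I protein and a basic type II protein. Krt25 to Krt28 encode type I keratins and Krt71 to Krt73 encode type II keratins. The inner root sheath is built of the Henle layer, the Huxley layer and a cuticle, it forms from matrix cells of the hair bulb, and it is made while the follicle grows. In human follicles KRT25, KRT27, KRT28 and KRT71 are found in all these layers, whereas KRT26, KRT72 and KRT73 belong to the cuticle.

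On the listed genes, the VC libraries held 6454563 to 7264151 reads and the AP libraries 8507783 to 11190113 reads. The 13 mitochondrially encoded genes took 54.3%, 44.9%, 42.1% and 52.3% of the reads across VC.1–VC.4, against 11.1%, 7.85%, 5.32% and 10.3% across AP.1–AP.4. Median totals without them were 3534619.5 (VC) and 8974689.5 (AP) reads, so that low genes were measured less precisely in the VC group. A gene with 3 reads, taken as the floor, had 4.10 to 5.63 normalized counts in a VC library and 1.49 to 2.18 in an AP library, for counting error only. Library names follow the columns of the table, and none was tied to an individual mouse, since the mice are numbered differently in the labels.

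Of the 8 libraries, VC.4 and AP.1 stood apart from their groups. The summed inner root sheath keratins were 5632, 4541, 5870 and 1455 normalized counts across VC.1–VC.4, against 3119, 12866, 14389 and 4837 across AP.1–AP.4. VC.4 was the lowest library of all, and AP.1 was the lowest of its group, below VC.1, VC.2 and VC.3. AP.4 also lay within the VC range, so that only AP.2 and AP.3 were above every VC library. The summed fibroblast genes (6 genes, Col1a1 the most abundant) were 113491, 76169, 78165 and 214350 across VC.1–VC.4, against 248493, 185673, 133545 and 94665 across AP.1–AP.4. Thus VC.4 and AP.1, the lowest libraries of their groups for the sheath keratins, were the highest for fibroblast genes. The summed skeletal muscle genes (6 genes, Acta1 the most abundant) were 39996, 62422, 31337 and 31557 across VC.1–VC.4, against 63650, 7876, 4684 and 10000 across AP.1–AP.4, so that AP.1 lay with the VC libraries. In whole tissue, fewer sheath cells and less keratin RNA per sheath cell cannot be told apart. The part of tissue make-up in the results was not tested, and the values of the 7 keratins and the counts called in each gene list are given with and without VC.4 and AP.1, a choice made after the values were seen.

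By limma's test on log2(normalized count + 1), with p-values adjusted by the Benjamini-Hochberg method over the 15964 genes tested, 1 of the 7 inner root sheath keratins rose in the AP group at an adjusted p under 0.05. That gene was Krt72, and it passed the filter on low values (3 normalized counts in 4 or more libraries) only through the AP libraries, as 1 of the 4 VC libraries reached 3, so its call is no support for the family. None of the 7 fell (0 lower by limma, by edgeR and by DESeq2, and 0 at an unadjusted p under 0.05 from limma). Over all genes tested, 6.33% were higher and 4.0% were lower by the same rule. Krt27 and Krt71 had an unadjusted p under 0.05 but an adjusted p above it, which makes 3 of the 7 at that unadjusted threshold, all higher. Of all genes tested, 30.3% reached it, 17% higher and 13.3% lower. The median log2 fold change of the 7 genes was 1.48, beside 0.06 for all genes tested, with 6 genes above 0 and Krt28 below. This median is the value of Krt26, a gene near the floor, and it was 0.95 with reads drawn down to equal depth. Scaling by total counts moved the median of all genes by 0.84, and Krt28 was then at 0.06, or -0.84 relative to that median. Krt73 was also below 0 without VC.4. For 1 of the 7, again Krt72, the lowest AP library exceeded the highest VC library, and for 0 the reverse held, where these shares over all genes were 10.3% and 8.91%. Beside these shares, 1 gene of 7 is not a result about the family as a whole.

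With VC.4 and AP.1 left out, limma called 3 of the 7 higher (Krt27, Krt71 and Krt72) and 1 lower (Krt28), beside 5.54% and 4.27% of all 15427 genes tested. The median of the 7 was then 1.69. All 3 remaining AP libraries lay above the 3 remaining VC libraries in 4 of the 7 genes and below them in 1, beside 18.8% and 17.2% of all genes. On the recovered reads of all 8 libraries, edgeR called 2 of the 7 higher (Krt71 and Krt72), beside 6.28% of all genes higher and 4.46% lower. DESeq2 called 3 of the 7 higher (Krt27, Krt71 and Krt72), beside 10.5% of all genes higher and 8.53% lower. When genes were called at an unadjusted limma p under 0.01 with a change beyond 1.5-fold, Krt71 and Krt72 (2 of the 7) were higher and 0 lower, beside 8.26% and 5.32% of all genes. Each of these counts of genes called higher or lying above includes Krt72. That gene passed the filter on low values only through the AP libraries, so it adds no support for the family. Without AP.2 the median of the 7 was 0.86. Limma then called 0 of the 7 in either direction, beside 2.45% of all genes higher and 0.987% lower. It also called 0 of the 7 without AP.3 (beside 1.34% and 0.611%) and without AP.4 (beside 1.63% and 0.934%), so that calls were fewer over all genes too.

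**Figure D1:**
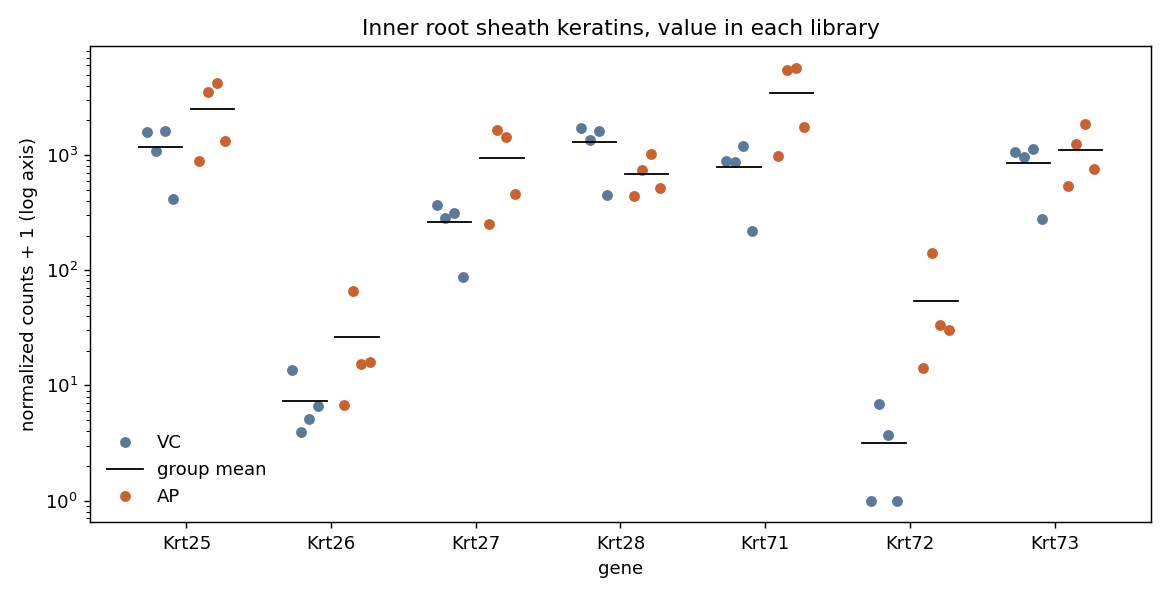
Normalized counts plus 1 of each inner root sheath keratin (horizontal axis) on a log axis, with 1 point per library (VC blue, AP orange) and a line at the group mean. For Krt72 the AP libraries lie between 13.1 and 139 normalized counts and the VC libraries between 0 and 5.91, and for the other genes the groups overlap.

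Krt25 encodes a type I keratin found in all layers of the human sheath. It had 1590, 1073, 1602 and 416 normalized counts across VC.1–VC.4, against 880, 3545, 4258 and 1328 across AP.1–AP.4. AP.2 and AP.3 were the highest libraries, and AP.1 and AP.4 lay within the range of the VC group. The means were 1170 ± 560 and 2503 ± 1651 (SD, n = 4 each), with a log2 fold change of 0.99 (SE 0.53, limma adjusted p = 0.231). The 2-sided p was 0.257 in an exact permutation test, which runs through 70 assignments of the libraries. The log2 fold change was 0.96 without both VC.4 and AP.1 (limma adjusted p = 0.140), 0.55 without VC.4 (0.472), 0.64 without AP.3 (0.495) and 1.86 with scaling by total counts (0.0166), which is 0.96 relative to the median of all genes, with a range of 0.0166 to 0.495 over all alternatives.

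Krt27, also of the type I cluster, had 364, 284, 311 and 86.3 normalized counts across VC.1–VC.4, against 249, 1637, 1439 and 458 across AP.1–AP.4. Here 3 of the 4 AP libraries were above every VC library, and AP.1 was not. The log2 fold change was 1.65 (SE 0.60, limma adjusted p = 0.0935; 2-sided exact permutation p = 0.114). It was 2.16 without AP.1 (limma adjusted p = 0.0263) and 1.69 without both VC.4 and AP.1 (limma adjusted p = 0.0354). It was lower without VC.4 (1.18, limma adjusted p = 0.192), without AP.2 (1.25, 0.223) and without AP.3 (1.31, 0.238). Over all alternatives its adjusted p ranged from 0.00663 to 0.238. The lowest came from scaling by total counts, where the log2 fold change was 2.51, or 1.61 relative to the median of all genes.

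Krt28, a further type I keratin, had a log2 fold change below 0, except with scaling by total counts (0.06). It had 1730, 1339, 1618 and 450 normalized counts across VC.1–VC.4, against 443, 744, 1030 and 521 across AP.1–AP.4. VC.1, VC.2 and VC.3 were above all AP libraries, while VC.4 was nearly as low as AP.1. The log2 fold change was -0.81 (SE 0.40, limma adjusted p = 0.195; 2-sided exact permutation p = 0.171). Without VC.4 it was -1.26 (limma adjusted p = 0.0282), and without both VC.4 and AP.1 it was -1.08 (limma adjusted p = 0.0290). Relative to the median of all genes it was -0.87, and -0.84 with scaling by total counts. Over all alternatives its adjusted p ranged from 0.0282 to 0.918.

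Krt26, a cuticle keratin in human follicles, was near the floor. It had 7, 2, 3 and 3 reads across VC.1–VC.4, against 8, 121, 29 and 21 reads across AP.1–AP.4. In normalized counts, VC.1–VC.4 were at 12.7, 2.96, 4.10 and 5.63, and AP.1–AP.4 at 5.80, 65.2, 14.4 and 15.0. Only AP.1 lay within the VC range, and AP.2 held most of the reads. The log2 fold change was 1.48 (SE 0.72, limma adjusted p = 0.190; 2-sided exact permutation p = 0.0571). It was 1.96 without both VC.4 and AP.1 (limma adjusted p = 0.135), 0.86 without AP.2 (0.494), 0.40 with reads drawn down to equal depth (0.867) and 2.26 with scaling by total counts (0.0184), or 1.36 relative to the median of all genes, where 0.0184 and 0.867 were the lowest and highest adjusted p of its alternatives.

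Krt71, the type II keratin whose mutation causes curly or wavy coats in several mammals, was low in VC.4 and high in AP.2 and AP.3. It had 879, 873, 1204 and 219 normalized counts across VC.1–VC.4, against 989, 5491, 5743 and 1734 across AP.1–AP.4. Again 3 of the 4 AP libraries were above every VC library, and AP.1 lay below VC.3. The means were 794 ± 413 and 3489 ± 2478 (SD, n = 4 each), with a log2 fold change of 2.01 (SE 0.61, limma adjusted p = 0.0575; 2-sided exact permutation p = 0.0571). The adjusted p was 0.0406 by edgeR's quasi-likelihood test and 0.0231 by DESeq2. By limma it was 0.0192 without AP.1 and 0.0220 without both VC.4 and AP.1. It was 0.110 without VC.4 (log2 fold change 1.48), 0.142 without AP.2 (1.67) and 0.157 without AP.3 (1.65). Over the alternatives the adjusted p ranged from 0.00411 to 0.157. Its lowest value came from scaling by total counts, where the log2 fold change was 2.88, or 1.98 relative to the median of all genes.

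Krt72, the gene that passed the test, had few reads in the VC group and passed the filter on low values only through the AP libraries. It had 0, 4, 2 and 0 reads across VC.1–VC.4, against 18, 258, 65 and 41 reads across AP.1–AP.4. In normalized counts, VC.1–VC.4 were at 0, 5.91, 2.73 and 0, and AP.1–AP.4 at 13.1, 139, 32.4 and 29.3. All AP libraries were above all VC libraries, with AP.2 far above the rest. The log2 fold change was 4.06 (SE 0.86, 95% interval 2.19 to 5.93, limma adjusted p = 0.0188). The 2-sided exact permutation p was 0.0286, the smallest that 4 libraries against 4 allow. The pseudocount of 1 makes the fold change of such a low gene smaller than the ratio of the means, and it was 4.61 with a pseudocount of 0.5 and 2.66 with 5. The call was lost without AP.2 (3.43, adjusted p = 0.0666), without AP.3 (4.12, 0.0649) and without AP.4 (4.16, 0.0550) by limma, and with limma-voom (4.22, adjusted p = 0.0983). Without both VC.4 and AP.1 it was 4.14 (limma adjusted p = 0.0243). With no filter on low values the adjusted p was 0.0198 by limma, and its alternatives gave values from 1.42e-04 (DESeq2) to 0.0983.

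Krt73, the remaining type II keratin, had 1057, 964, 1128 and 278 normalized counts across VC.1–VC.4, against 539, 1244, 1872 and 751 across AP.1–AP.4. AP.2 and AP.3 were above every VC library, and AP.1 and AP.4 lay within the VC range. The log2 fold change was 0.39 (SE 0.47, 95% interval -0.63 to 1.41, limma adjusted p = 0.603), which leaves room for changes in either direction. It was 0.20 without both VC.4 and AP.1 (limma adjusted p = 0.680), -0.09 without VC.4, 0.08 without AP.3, 0.68 without AP.1 and 1.26 with scaling by total counts, or 0.36 relative to the median of all genes. The adjusted p of its alternatives lay between 0.0540 and 0.933.

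**Figure D2:**
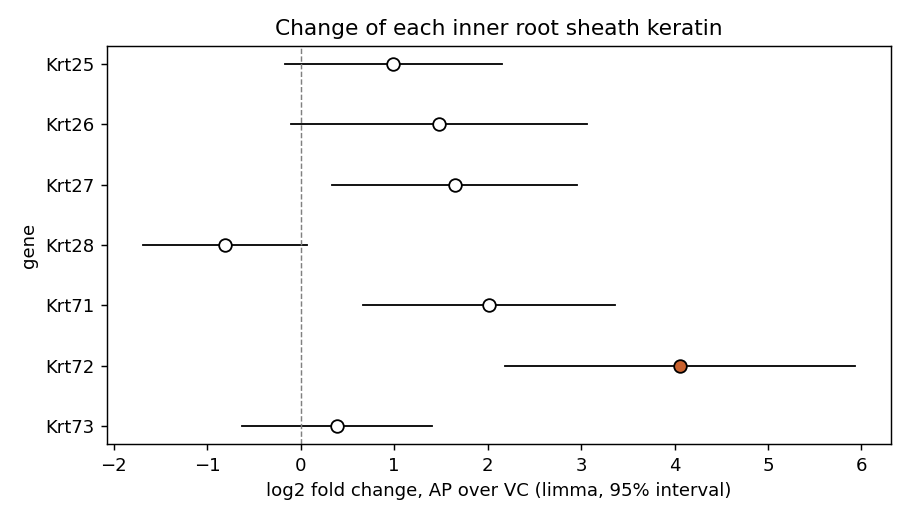
Log2 fold change, AP over VC, of each inner root sheath keratin from limma (horizontal axis), with its 95% interval as a line; the filled point has an adjusted p under 0.05. Krt72 lies at 4.06 and Krt28 at -0.81; with scaling by total counts Krt28 is at 0.06, or -0.84 relative to the median of all genes.

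Levels of different genes were compared as normalized counts per kb of exon, with lengths from GENCODE. Krt28 was the highest of the 7 in each VC library, at 791 ± 357 per kb (SD, n = 4), and Krt25 came next in each. In each AP library Krt71 was the highest, at 1596 ± 1133 per kb, again followed by Krt25. Krt73 and Krt71 were close to each other in the VC group, at 395 ± 181 and 363 ± 189 per kb, and their order was not the same in all VC libraries. Krt26 and Krt72 were the lowest in all 8 libraries, at 1.73 ± 1.20 and 1.08 ± 1.41 per kb (VC), and 6.85 ± 7.38 and 26.8 ± 28.9 per kb (AP).

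The make-up of the family was then described as the share of each gene in the summed per-kb level of the 7, which no scaling of whole libraries can change. This measure was chosen after the values were seen and is given without a test. Krt28 made up 35.6%, 34.4%, 32.4% and 35.9% across VC.1–VC.4, against 17.2%, 7.08%, 8.79% and 13.1% across AP.1–AP.4. Each AP library was thus below each VC library, AP.1 included. Krt71 made up 13.4%, 16.7%, 17.9% and 13.0% across VC.1–VC.4, against 28.5%, 38.8%, 36.4% and 32.5% across AP.1–AP.4, so that each AP library was above each VC library. The share of Krt27 was 7.31% ± 0.582 under VC and 12.9% ± 2.59 under AP (SD, n = 4 each), from 10.1% to 16.3% in the AP libraries against at most 7.84%. Krt25 made up 25.6% ± 2.11 and 28.1% ± 1.06, and Krt73 17.1% ± 1.01 and 12.7% ± 2.96 (SD, n = 4 each). The groups did not overlap for these shares or for that of Krt72 either. For Krt25 they nearly met, at most 27.1% under VC and at least 27.3% under AP. The shares of Krt26 overlapped. The type II keratins together made up 29.7%, 35.4%, 34.9% and 29.6% across VC.1–VC.4, against 44.6%, 48.8%, 48.6% and 47.3% across AP.1–AP.4. VC.4, with the lowest summed level of the 8 libraries, had nearly the same shares as the other VC libraries. AP.1, whose summed level was within the range of the VC group, had shares of Krt28 and Krt71 outside it. A share can move because another member of the sum moved. These shares therefore describe the make-up of each library, with no test of a difference between genes. They do not show which gene changed.

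**Figure D3:**
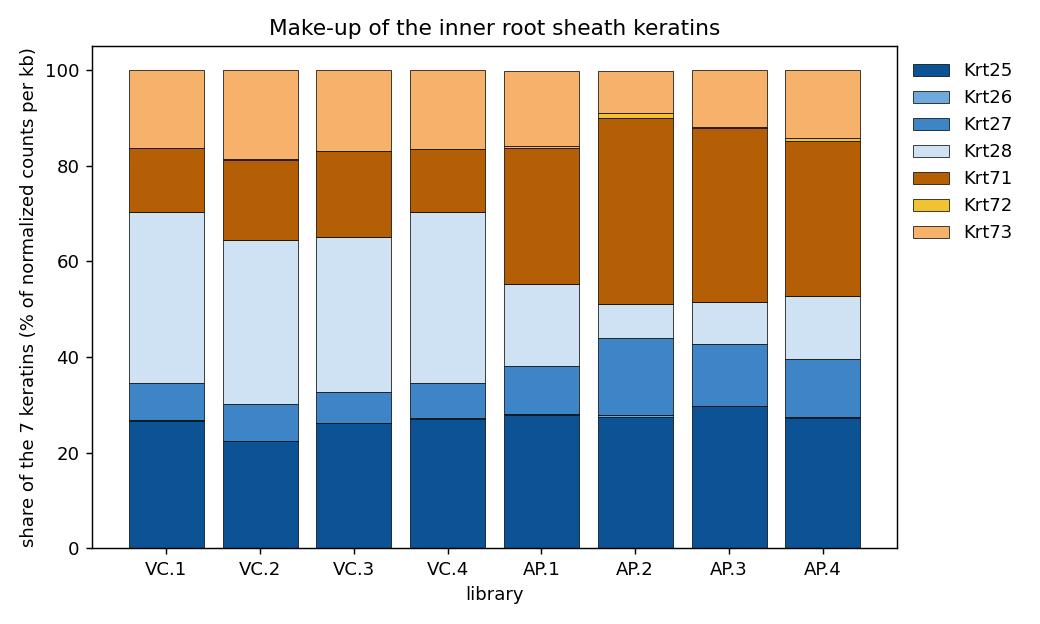
Share of each inner root sheath keratin (stacked bars, in percent of the summed normalized counts per kb) in each library. Krt28 takes 32.4% to 35.9% in the VC libraries and 7.08% to 17.2% in the AP libraries, and Krt71 takes 13.0% to 17.9% and 28.5% to 38.8%.

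Among other genes of the inner root sheath, 12 were listed, 11 were in the table and 10 were tested. Of these, 2 rose by limma and 0 fell, beside 6.33% and 4.0% of all genes. The median log2 fold change was 1.23. By edgeR 2 rose and 0 fell, beside 6.28% and 4.46% of all genes. By DESeq2 3 rose and 0 fell, beside 10.5% and 8.53%. With VC.4 and AP.1 left out, 3 rose and 0 fell by limma, beside 5.54% and 4.27%. Trichohyalin, encoded by Tchh, binds the keratin filaments of the sheath together. It had 366, 265, 247 and 99.4 normalized counts across VC.1–VC.4, against 709, 4478, 4193 and 1223 across AP.1–AP.4. Each AP library was above each VC library, and the log2 fold change was 3.18 (SE 0.57, limma adjusted p = 0.0113), or 3.30 without VC.4 and AP.1. Tgm3, a transglutaminase that cross-links such proteins, rose by 2.75 (SE 0.45, limma adjusted p = 0.00896). It is also made in the upper epidermis, as is Cdsn, a protein of corneodesmosomes (1.44, SE 0.42, adjusted p = 0.0512 by limma, and 2.04 with 0.0142 without VC.4 and AP.1).

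The peptidylarginine deiminases Padi1 and Padi3, which modify trichohyalin and filaggrin, had log2 fold changes of 1.59 (SE 0.62) and 1.03 (SE 0.56), with limma adjusted p of 0.115 and 0.239. Liph, a lipase whose product acts on the receptor encoded by Lpar6, had 1.51 (SE 0.61, limma adjusted p = 0.123), and Lpar6 had -0.07 (SE 0.35, adjusted p = 0.911), or 0.20 without VC.4 and AP.1. None of the listed transcription factors of the sheath lineage was called by limma. Gata3 had 1135, 646, 929 and 311 normalized counts across VC.1–VC.4, against 454, 492, 805 and 752 across AP.1–AP.4, a log2 fold change of -0.16 (SE 0.36, limma adjusted p = 0.789). Cux1 and Dlx3 had 0.32 (SE 0.27) and -0.33 (SE 0.51), with limma adjusted p of 0.445 and 0.699. Tchhl1 was too low to be tested, and Krt74, annotated as a pseudogene in the mouse, was not analysed here.

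Regulators of the hair matrix, the tissue that gives rise to the sheath, were described in the same way. Limma called 0 of 5 (beside 6.33% of all genes higher and 4.0% lower), and also 0 with VC.4 and AP.1 left out (5.54% and 4.27%). EdgeR called 0 (6.28% and 4.46%) and DESeq2 0 (10.5% and 8.53%). At an unadjusted p under 0.05 from limma was 1 of 5, beside 30.3% of all genes. The median of these log2 fold changes was -0.56. Foxn1, required for normal hair keratin expression, had 1.59 (SE 0.65, limma adjusted p = 0.126). The signal Shh had -0.73 (SE 0.50), Msx1 -0.56 (SE 0.40), Msx2 -0.64 (SE 0.47) and Hoxc13 -0.28 (SE 0.50), with limma adjusted p from 0.349 to 0.740. VC.4 was the lowest VC library for each of these genes, as it was for Krt25, Krt27, Krt28, Krt71, Krt73 and Tchh.

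Keratins of the other follicle layers were set beside those of the sheath. Of 5 companion layer keratins, limma called 2 higher (Krt6b and Krt16) and 0 lower, beside 6.33% and 4.0% of all genes. Their median log2 fold change was 2.10. With VC.4 and AP.1 left out limma called 3 higher, beside 5.54% of all genes. Krt6a was among them (2.59, limma adjusted p = 0.00620). Krt75, the keratin that defines this layer, had 0.20 (SE 0.35, limma adjusted p = 0.735). Krt17 had 0.56 (SE 0.30, adjusted p = 0.231), Krt6a 2.10 (SE 0.64, 0.0556) and Krt6b 7.03 (SE 1.42, 0.0167), all by limma, and these genes are also induced in wounded epidermis. Krt5, Krt14 and Krt15 of the outer root sheath and basal layer had 0.94, 1.02 and 0.25, with limma adjusted p of 0.196, 0.212 and 0.675. Limma called 0 of these 3 (beside 6.33% of all genes higher and 4.0% lower), and 0 without VC.4 and AP.1 (5.54% and 4.27%). EdgeR called 0 (6.28% and 4.46%) and DESeq2 0 (10.5% and 8.53%). At an unadjusted p under 0.05 from limma there were also 0, beside 30.3% of all genes. With 3 genes, 0 called is no result about these layers. Of 15 hair shaft keratins, 13 were in the table and 9 were tested, and the median was 2.16. Limma called 0 of the 9, beside 6.33% and 4.0% of all genes, and 0 with VC.4 and AP.1 left out, beside 5.54% and 4.27%. At an unadjusted p under 0.05 from limma were 4 of 9, beside 30.3% of all genes. By edgeR 1 was called higher, beside 6.28% of all genes. DESeq2 called 4 of the 8 for which it gave an adjusted p (not Krt31), all higher, beside 10.5% of all genes. These were Krt33a, Krt33b, Krt81 and Krt83. Each had VC libraries under 3 normalized counts and needed the AP libraries to pass the filter on low values. Their calls, and that of Krt33a by edgeR, are therefore no support for the list, whose median of 2.16 is the value of Krt81. Most hair shaft keratins were near the floor, and Krt35, the most abundant, had a log2 fold change of -0.60 (SE 0.38, limma adjusted p = 0.303). Krt86 had 1.28 (SE 0.71, adjusted p = 0.242) and Krt33a 3.12 (SE 0.94, adjusted p = 0.0547).

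Markers of other cell types were described too, and with all libraries limma called genes only in the suprabasal and melanocyte lists. The 9 genes of the suprabasal epidermis summed to 5548, 12195, 8219 and 5291 normalized counts across VC.1–VC.4, against 42047, 39842, 116415 and 166677 across AP.1–AP.4. Limma called 7 of the 9 higher, beside 6.33% of all genes, and 6 with VC.4 and AP.1 left out, beside 5.54%. Krt10, the most abundant, had a log2 fold change of 3.85 (SE 0.50, limma adjusted p = 0.00367), Krt1 3.46 (SE 0.54, 0.00843) and Krt77 3.95 (SE 0.53, 0.00435). The highest libraries for these genes were AP.3 and AP.4, whereas AP.2 and AP.3 were the highest for the sheath keratins. Of 5 melanocyte genes limma called 3 lower (Pmel, Tyr and Mlana), beside 4.0% of all genes. All 5 were called lower with VC.4 and AP.1 left out, beside 4.27%. They summed to 4222, 3189, 3763 and 1313 across VC.1–VC.4, against 1212, 1463, 1943 and 1111 across AP.1–AP.4. Among the most abundant of them, Dct had -0.83 (SE 0.33, adjusted p = 0.115), Pmel -1.35 (SE 0.38, 0.0462) and Tyrp1 -0.50 (SE 0.40, 0.425). With VC.4 and AP.1 left out, Dct had -1.19 (limma adjusted p = 0.0173) and Tyrp1 -0.85 (0.0451). Limma and edgeR called 0 of the 6 fibroblast, 0 of the 6 skeletal muscle and 0 of the 6 adipocyte genes, whose medians were 0.49, -1.65 and 0.26. The shares of all genes called higher and lower were 6.33% and 4.0% by limma and 6.28% and 4.46% by edgeR. DESeq2 also called 0 in each list, beside 10.5% and 8.53% of all genes. It gave no adjusted p for the muscle genes Ckm and Tnnt3, which leaves 4 of the 6. At an unadjusted p under 0.05 from limma these counts were 1, 4 and 1 of 6 each, beside 30.3% of all genes. With VC.4 and AP.1 left out, all 6 muscle genes were called lower, beside 4.27% of all genes. In that fit 0 fibroblast and 0 adipocyte genes were called. Col1a1, Col1a2 and Col3a1 of the fibroblast genes had log2 fold changes of 0.63, 0.57 and 0.41, with limma adjusted p from 0.428 to 0.580. Acta1, Ckm and Tnnt3 of muscle had -1.92, -1.74 and -1.86 (limma adjusted p from 0.0603 to 0.0747), and Cfd, Fabp4 and Cidec of adipocytes had 0.43, 0.28 and -0.36 (from 0.546 to 0.649). No gene of these lists was at 0 in all libraries, and the part of these cell types in the keratin values was not tested.

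In the mouse genome (mm10, GENCODE M21) the type I members lie side by side on chromosome 11 from 99315516 to 99374903 and the type II members lie on chromosome 15 from 101733949 to 101802346, with the annotated pseudogene Krt74 between Krt71 and Krt72. All 7 are read from the minus strand. Krt25 spans 99315516 to 99322951, Krt26 99328550 to 99337966, Krt27 99345565 to 99351104 and Krt28 99364872 to 99374903. Krt71 spans 101733949 to 101743109, Krt72 101776172 to 101786460 and Krt73 101793308 to 101802346. Thus Krt27, above the VC range in 3 AP libraries, and Krt28, below VC.1 to VC.3 in all AP libraries, are adjacent genes (all in normalized counts). Next to the type I members lie Krt24 and Krt222 on the side of Krt25 and Krt10 and Krt12 on the side of Krt28. Krt24 had a log2 fold change of -1.18 (SE 0.53, limma adjusted p = 0.156) and Krt222 1.54 (SE 0.76, adjusted p = 0.194), and Krt12 was too low to be tested. Beside the type II members lie Krt5 and Krt6a on the side of Krt71 and Krt2 and Krt1 on the side of Krt73, and Krt2 had 2.62 (SE 0.96, limma adjusted p = 0.0941). No member overlaps another annotated gene. Of the 100-base words of Krt25 and Krt27, 0.582% and 0.758% also occur in other genes, mostly in each other, and 0% in the other 5 members.

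Krt27 and Krt28 are neighbours with log2 fold changes of 1.65 and -0.81 by limma, neither of them called with all libraries. Krt71 and Krt72 are the type II members with the largest log2 fold changes. For these genes the bases before the start of transcription are shown. They are the 100 bases upstream of the RefSeq start (GRCm38.p6, minus strand, 5′ to 3′). These are chr11:99351119-99351218 for Krt27, chr11:99374904-99375003 for Krt28, chr15:101743098-101743197 for Krt71 and chr15:101786521-101786620 for Krt72. Capitals mark TATAAA, the core of the TATA box.
Krt27: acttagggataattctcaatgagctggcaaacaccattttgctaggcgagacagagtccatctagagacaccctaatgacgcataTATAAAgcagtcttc
Krt28: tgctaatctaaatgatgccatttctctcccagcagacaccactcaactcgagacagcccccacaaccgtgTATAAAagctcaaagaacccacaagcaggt
Krt71: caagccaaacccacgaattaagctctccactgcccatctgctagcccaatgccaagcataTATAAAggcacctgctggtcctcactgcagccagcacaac
Krt72: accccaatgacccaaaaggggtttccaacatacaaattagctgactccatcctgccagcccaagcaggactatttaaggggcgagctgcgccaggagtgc
Searched on both strands, TATAAA occurs in this window in 6 of the 7 members and in 5.56% of 32851 RefSeq promoters of the mouse, and the letters are not found in that of Krt72. Other forms of the TATA box were not searched, so this does not show that Krt72 lacks one. These windows follow the RefSeq starts, which lie 60 bases upstream of the GENCODE start in Krt72, 14 upstream in Krt27 and 12 downstream in Krt71, and are the same in Krt28. The bases between both starts of Krt72 were not searched. GATAA, the core bound by GATA factors, occurs in 1 of the 7 (Krt27) and in 8.55% of the promoters, and no match of it overlaps TATAAA there. A match describes the letters only.

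Across the 8 libraries, the 21 pairs of members had Pearson correlations of log2(normalized count + 1) from -0.267 to 0.985 (median 0.675). After centring within each group they ranged from 0.265 to 0.984 (median 0.677), so that libraries of a group high in 1 member tended to be high in the others. These values describe 8 libraries of whole tissue that differ in depth and make-up. Among 11252 other genes with a mean of at least 50 normalized counts, the 10 most similar to the mean of the 7 were Sufu, Kmt2b, Pak2, Brd2, Nipal3, Fzd5, Bptf, Pi4ka, Foxe1 and Slc39a10. Their r ranged from 0.960 to 0.989 over the 8 libraries, and from 0.927 to 0.981 after centring within groups. Sufu, a negative regulator of hedgehog signalling, came first (r = 0.989), with a log2 fold change of 0.38 (SE 0.20, limma adjusted p = 0.225). Of these 10 genes, Foxe1 had the largest log2 fold change (1.25, SE 0.45, limma adjusted p = 0.0881).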

How the data were processed

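RNA from 8 libraries was used, 4 per group. Cleaned reads were aligned to mm10 with STAR, counted per gene and normalized with DESeq2 by the authors. The counting tool is featureCounts in the methods and HTSeq in the submitters' processing notes, versions not given in the sources used here. The deposited signal values are read counts divided by 1 size factor per library. All 150160 values (100%) were whole multiples of 1 step per library, within 0.01 of a read (or 1e-06 of it for large values), so reads were recovered. The authors' own comparison columns (fold changes, p-values) were not used.

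Values were compared as log2(value + 1) with limma 3.58.1 in R 4.3.3 (intensity trend), for genes reaching 3 normalized counts in 4 or more libraries, adjusted by Benjamini-Hochberg over 15964 genes; all 7 members passed this filter, Krt72 only through the AP libraries. On recovered reads, edgeR 4.0.16 called 1003 genes higher and 712 lower; DESeq2 1.42.0 was also run and gave no adjusted p for 43 genes, which were not counted as called. Alternatives were limma-voom, pseudocounts of 0.5 and 5, other filters and scalings, non-mitochondrial reads thinned to 3080758 in each library, no trend, the p and fold thresholds of the methods applied to limma's values and each library left out. Steps were tested on simulated data. Whether the reads were counted by strand is not given in the sources used here. Of 18770 identifiers, 18766 are in GENCODE M21, and promoters came from RefSeq.

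The members and gene lists were chosen with earlier results of these data known. Named genes are the 7 members, all other inner root sheath genes and hair matrix regulators, the 3 genes of each other list with the largest mean, Krt75, the next genes beside both clusters, and the 10 most similar genes; others were named after their values were seen.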

Additional observations from a re-analysis of the deposited data

Results flagged for a closer look

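Within the AP group, AP.2 stood far from the other libraries for Krt26 (65.2 normalized counts) and Krt72 (139 normalized counts). The gap from AP.2 to the nearest library was 0.845 of the range of the group for Krt26 and 0.847 for Krt72, above Dixon's 95% critical value for 4 values. Chance alone passes this value in about 1 of 20 groups, and 34 groups of values were examined.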

How the results depend on the processing

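The 7 inner root sheath keratins were fitted under 22 alternatives each. Of these 154 values, 134 kept their sign and their side of the threshold, 14 gained a call, 4 lost one (all Krt72) and 2 changed sign. Krt28 was 0.06 with total counts, a scaling that moved the median of all genes by 0.84, and stayed at -0.84 relative to that median. Krt73 was -0.09 without VC.4 (up to 0.68 with other single libraries left out), and the cause was not tested. Neither was called there. Of the 7, the number called higher, Krt72 included each time, was 2 with edgeR, 3 with DESeq2 and 5 with total counts. With limma-voom it was 0, where 715 genes in all were called higher and 723 lower. It was 2 by the thresholds of the methods applied to limma's p-values (unadjusted p under 0.01 and fold change over 1.5). There 1319 genes in all were called higher and 850 lower. The number of the 7 called higher ran from 0 to 3 with single libraries left out, and the number called lower from 0 to 1. Leaving out VC.4 and AP.1 together gave 3 higher and 1 lower. The median of the 7 ran from 0.86 (without AP.2) to 1.96 (without AP.1), and it was 0.95 with reads drawn down to equal depth and 2.26 with total counts. Over all genes, 1011 were called higher and 639 lower, against 1677 and 1362 with DESeq2, 8670 and 65 with total counts, and 376 and 216 without the intensity trend. With single libraries left out, these counts ran from 211 (without AP.3) to 1061 and from 96 (without AP.3) to 812. They were 385 and 155 without AP.2, 257 and 147 without AP.4, and 584 and 255 without VC.1. The number of the 7 with all AP libraries above all VC libraries was 3 with total counts (beside 49.1% of all genes), 2 without VC.1 (12.3%), 2 without VC.3 (14.6%), 4 without AP.1 (15.3%), 4 without VC.4 and AP.1 (18.8%) and 1 with each other single library left out (10.9% to 14.6%). The number below was 1 without VC.4 (12.4%), 1 without VC.4 and AP.1 (17.2%) and 0 with each other single library left out (9.99% to 13.5%).

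Depth limits Krt26 and Krt72 most, with 15 and 6 reads over the VC group. No paired analysis was possible because the groups share no replicate number and the columns are tied to no mouse.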
